A study of Mus musculus with 6 samples.

Results

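Liver carboxylesterases were examined in mRNA sequencing of whole mouse liver. The 10 genes described here are the class 1 genes Ces1b, Ces1c, Ces1d, Ces1e, Ces1f and Ces1g, the class 2 genes Ces2a and Ces2e, and the class 3 genes Ces3a and Ces3b. They were taken by gene symbol from a table of 24411 rows, and each had 1 row. The 3 Sox9 cKO samples were livers of Alb-Cre+/+;Sox9 flox/flox mice, in which a Cre recombinase under the albumin promoter removes the floxed Sox9 alleles in liver epithelial cells. The 3 control samples were livers labelled WT, and strain C57BL/6J is among those the study lists. Ages and sexes are not given in the labels, nor is it stated whether controls carried Cre or floxed alleles. Values are in TPM, each gene's length-corrected share of a library's transcripts, so levels of different genes can be compared. Sequencing depth cannot be read from TPM and is unknown here.

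Carboxylesterases are serine hydrolases that split ester, amide and thioester bonds. Most liver members sit inside the endoplasmic reticulum of hepatocytes, where they convert ester drugs and take part in the turnover of stored triglyceride before lipoprotein secretion. In rodents Ces1c is secreted and is the main carboxylesterase of blood plasma. The mouse family expanded by tandem duplication, so its members are numerous and alike in sequence.

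All 10 genes lie on chromosome 8 of mouse build mm10 (GRCm38), in 2 clusters 11.2 Mb apart. The class 1 genes are on the minus strand between positions 93020214 and 93535830, a stretch of 515.6 kb that holds 9 carboxylesterase genes. The class 2 and class 3 genes are on the plus strand between 104734003 and 105150109, a stretch of 416.1 kb with 11 carboxylesterase genes. Transcript sequences of the GENCODE annotation showed how alike the members are. Ces3a and Ces3b transcripts were 95.4% identical over their aligned bases, Ces1b and Ces1c 91.4%, and Ces2a and Ces2e 81.4%. The 15 pairs within class 1 ranged from 73.4% to 91.4%, and the 28 pairs between classes from 64.0% to 67.1%. Of all 75-base windows in the Ces3a transcript, the read length used, 18.3% also occurred in Ces3b, and 15.4% of Ces3b windows occurred in Ces3a. Ces1d, Ces1f and Ces1g shared no window with another gene, and Ces1b, Ces1c, Ces1e and Ces2e shared at most 6.73%. For Ces2a the shared windows, 14.8%, belonged to the predicted gene Gm7208. Reads from shared windows had to be divided between genes by the authors' estimate, so single values of Ces3a and Ces3b are less certain than their sum. Gm7208 is in none of the sums given here, so the uncertainty of Ces2a stays in the class 2 sum.

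The following promoter sequences, 250 bases before to 50 bases after the annotated start, are RefSeq's for build GRCm38.p6. They are shown for Ces3b, Ces1e and Ces1g, whose transcripts passed the test between the groups, and for Ces1b and Ces1c, whose transcripts are the closest pair of class 1. Capitals mark matches, on either strand, to 7 short motifs: the SOX cores ACAATG and ACAAAG, the nuclear receptor motif AGGTCA, the STAT5 palindrome TTCNNNGAA, the HNF1 motif GTTAAT, the TATA box TATAAA and the CCAAT box.
Ces3b promoter, chr8:105083505-105083804, plus strand: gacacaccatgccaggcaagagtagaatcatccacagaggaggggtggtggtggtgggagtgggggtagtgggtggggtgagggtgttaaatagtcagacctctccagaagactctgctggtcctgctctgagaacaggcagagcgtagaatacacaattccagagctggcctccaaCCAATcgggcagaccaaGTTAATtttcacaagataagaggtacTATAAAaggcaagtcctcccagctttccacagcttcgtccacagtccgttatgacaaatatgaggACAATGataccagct
Ces1e promoter, chr8:93229570-93229869, minus strand: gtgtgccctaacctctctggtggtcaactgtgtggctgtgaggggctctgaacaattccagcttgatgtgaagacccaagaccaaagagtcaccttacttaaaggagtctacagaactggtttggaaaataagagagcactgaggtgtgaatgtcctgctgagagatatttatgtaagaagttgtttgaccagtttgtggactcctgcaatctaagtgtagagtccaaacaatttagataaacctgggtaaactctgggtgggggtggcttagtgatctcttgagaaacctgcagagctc
Ces1g promoter, chr8:93337160-93337459, minus strand: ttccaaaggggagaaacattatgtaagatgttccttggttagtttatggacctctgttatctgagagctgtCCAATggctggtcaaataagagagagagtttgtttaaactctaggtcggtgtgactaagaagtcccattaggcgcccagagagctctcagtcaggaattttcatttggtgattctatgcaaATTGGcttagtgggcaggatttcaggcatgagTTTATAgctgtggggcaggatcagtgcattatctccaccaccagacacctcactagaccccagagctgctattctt
Ces1c promoter, chr8:93131234-93131533, minus strand: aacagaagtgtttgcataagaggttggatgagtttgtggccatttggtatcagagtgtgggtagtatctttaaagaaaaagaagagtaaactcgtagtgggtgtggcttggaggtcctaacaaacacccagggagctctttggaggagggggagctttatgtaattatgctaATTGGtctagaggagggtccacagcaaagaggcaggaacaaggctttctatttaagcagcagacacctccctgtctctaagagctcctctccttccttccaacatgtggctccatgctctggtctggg
Ces1b promoter, chr8:93079891-93080190, minus strand: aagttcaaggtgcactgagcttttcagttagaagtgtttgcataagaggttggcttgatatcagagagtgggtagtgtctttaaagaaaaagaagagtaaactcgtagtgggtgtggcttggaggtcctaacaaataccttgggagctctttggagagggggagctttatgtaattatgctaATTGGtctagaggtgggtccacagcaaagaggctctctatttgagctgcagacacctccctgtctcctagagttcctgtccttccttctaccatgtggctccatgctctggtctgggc
The Ces3b promoter held a TATA box beginning 30 bases before the start, an HNF1 motif 56 bases before it and a CCAAT box 73 bases before it. It also held the SOX core ACAATG, 35 bases after the start. Of 32851 promoters of the same length, 13.6% held the TATA box, 7.10% the HNF1 motif, 37.4% the CCAAT box and 12.6% this SOX core. The Ces1e promoter matched none of the 7 motifs, while that of Ces1g held a TATA box on the opposite strand and a pair of CCAAT boxes. The Ces1b and Ces1c promoters were 92.7% identical over 273 aligned bases, and each held 1 CCAAT box, written ATTGG on the strand shown. Such matches describe the letters only. RefSeq promoters were matched for 7 of the 10 genes.

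Before the results, the libraries' own differences are given. Sox9 was at 0.19, 0.40 and 0.68 TPM in Sox9 cKO livers, against 1.69, 1.43 and 1.43 TPM in control livers, a log2 fold change of -1.16 (SE 0.25, limma adjusted p = 0.0323). The Sox9 call was lost in 10 of 18 alternatives, among them the omission of any 1 control or of Sox9 cKO replicate 1 or 2 (adjusted p = 0.0620 to 0.115). Xist RNA, which coats the silenced X chromosome in female cells, was at 0 to 0.02 TPM in Sox9 cKO livers and at 114, 123 and 0.01 TPM in control replicates 1, 2 and 3. The Y-linked gene Eif2s3y was at 47.6 to 49.9 TPM in Sox9 cKO livers and at 51.6 TPM in control replicate 3 alone of the controls. Differences from control replicate 3 alone are therefore plotted for every member by chromosomal order and given for several. Among the 12539 genes whose mean reached 0.5 TPM, limma called 103 (0.821%) higher and 1099 (8.76%) lower in Sox9 cKO livers, 9.59% in all. The log2 fold changes of all tested genes had a median of -0.24, the shift against which single changes stand. Once the libraries were centred on their medians, 146 genes (1.16%) were higher and 256 (2.04%) lower, 3.21% in all.

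The summed level of the 10 genes overlapped between the groups, but its makeup differed between the groups. Their summed TPM was 7669, 5950 and 8578 in Sox9 cKO livers and 7657, 7928 and 7246 in control livers. The means were 7399 ± 1335 TPM in Sox9 cKO and 7610 ± 343 TPM in controls (SD, n = 3 each). These sums were 0.595% to 0.858% of each Sox9 cKO library and 0.725% to 0.793% of each control library. Class 1 genes made up 60.3% ± 4.21 of the family's sum in Sox9 cKO livers, against 81.6% ± 3.73 in control livers. Without Ces1c, class 1 summed to 1178 to 1649 TPM in Sox9 cKO livers and 1500 to 1659 TPM in control livers. These ranges overlapped. A share also depends on the levels of the other classes. Class 3 genes made up 29.3% ± 5.99 in Sox9 cKO and 10.6% ± 4.10 in controls, and class 2 genes 10.4% ± 2.50 in Sox9 cKO and 7.82% ± 0.411 in controls. Neither the class 1 nor the class 3 shares overlapped between the groups, whereas the class 2 shares did. The class 2 summed TPM did not overlap, at 680 to 781 in Sox9 cKO livers and 587 to 601 in control livers. No test was made on these sums.

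**Figure D1:**
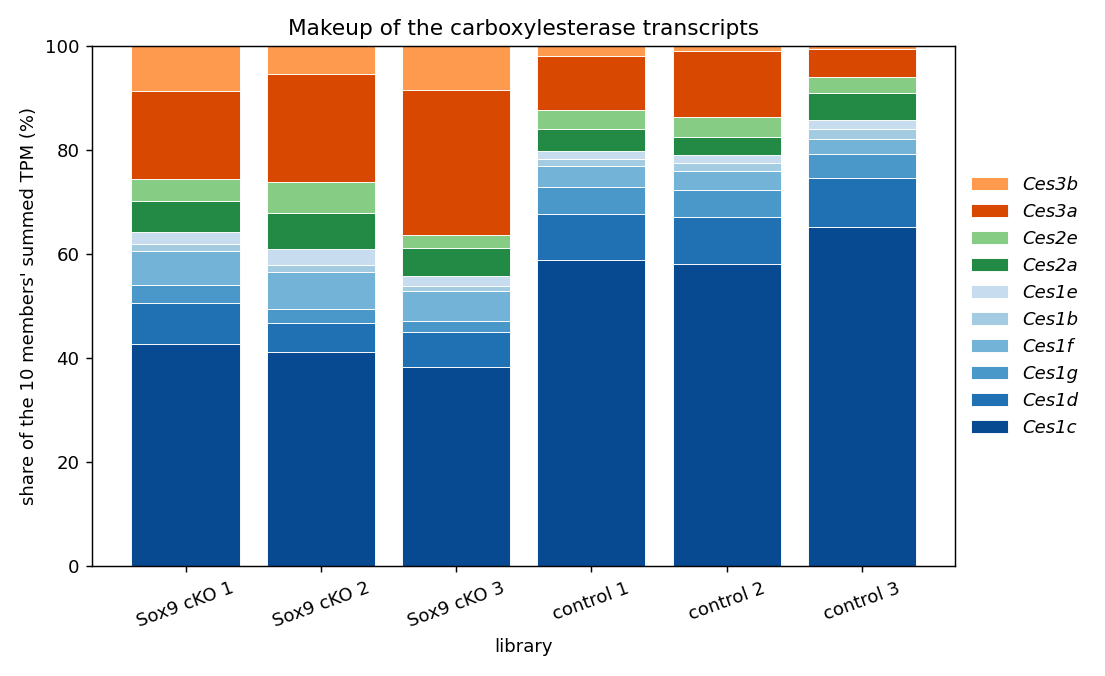
Share of the 10 carboxylesterase genes' summed TPM held by each gene (vertical axis, percent), in the 3 Sox9 cKO libraries on the left and the 3 control libraries on the right. Class 1 genes are blue, class 2 genes green and class 3 genes orange; Ces1c holds 38.3% to 42.7% in Sox9 cKO livers and 58.1% to 65.1% in control livers.

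Of the 10 genes, 3 rose, 1 fell and 6 did not pass the test across all genes. Among all tested genes 0.821% rose and 8.76% fell, together 9.59%. Ces3b, Ces1f and Ces1e were the risen members and Ces1g the fallen one. The median log2 fold change of the 10 was 0.28, beside -0.24 over all tested genes. Every Sox9 cKO value lay above every control value for 5 members, against 3.79% of all tested genes, and below for 3 members, against 33.7%. Together these are 8 of 10 members, against 37.5% of all tested genes. After median centring 4 members were higher, Ces2a being added, against 1.16% of all tested genes. None was lower, Ces1g having lost its call (adjusted p = 0.0884), against 2.04%, or 3.21% for both directions. No member changed sign under median centring or quantile normalization. With a sex-marker term (Xist above 10 TPM) 0 members passed in either direction. The fit with control replicate 3 as the only control gives the same log2 fold changes by construction. It is therefore not a separate check. With the sex-marker term 0.167% of all tested genes were higher and 0.391% lower (0.558% in all), and against control replicate 3 alone 0.0718% and 0.144% (0.215% in all). Leaving out 1 library at a time left 0 to 2 risen and 0 to 1 fallen members, with 0 of either when control replicate 2 was left out.

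**Figure D2:**
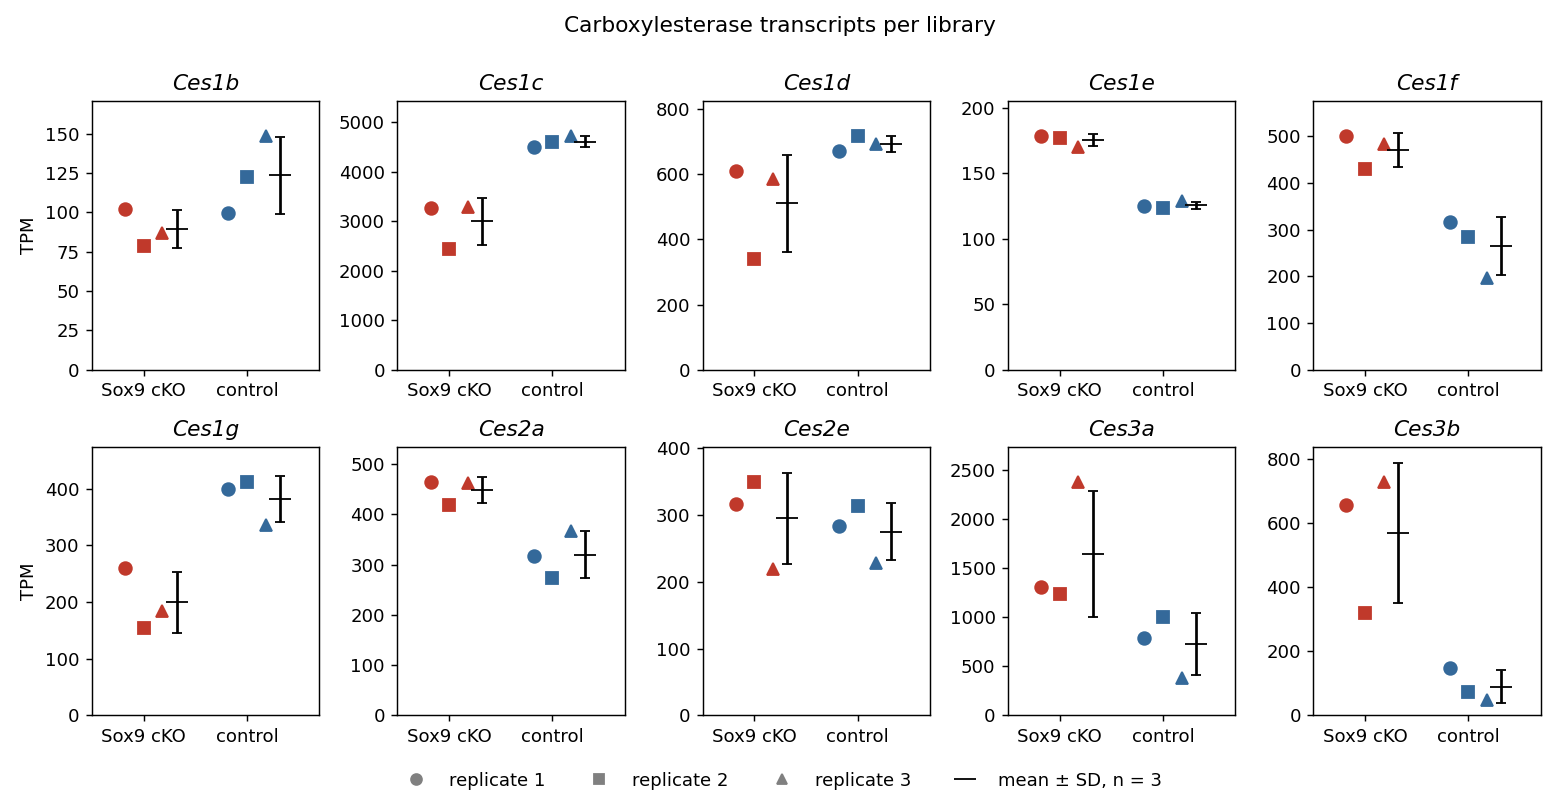
TPM (vertical axes, each from 0) of the 10 carboxylesterase genes in every library, Sox9 cKO in red on the left and control in blue on the right, with marker shapes for replicates 1 to 3 and black bars for mean ± SD of 3 libraries. Ces1e, Ces1f, Ces2a, Ces3a and Ces3b have all Sox9 cKO points above all control points, and Ces1c, Ces1d and Ces1g have them below.

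Ces1c was the most abundant member in every library. It was at 3273, 2448 and 3282 TPM in Sox9 cKO livers and 4509, 4603 and 4721 TPM in control livers. The groups did not overlap, and the control values lay within 1.05-fold of each other. Its log2 fold change was -0.63 (SE 0.18), which did not pass the test over all genes (limma adjusted p = 0.0635), with a 95% interval of -1.05 to -0.22. It did pass under quantile normalization (adjusted p = 0.0436) and with array weights (0.0249), among adjusted p-values of 0.0249 to 0.533 over all 19 alternatives. Against control replicate 3 alone its log2 differences were -0.53, -0.95 and -0.52. Ces1c ranked 35th to 46th among all genes of the Sox9 cKO libraries and 22nd or 23rd in the controls. Ces1b, its nearest relative in transcript and promoter, was at 102, 78.4 and 87.0 TPM in Sox9 cKO livers and 99.7, 123 and 149 TPM in control livers. Here the groups overlapped, since control replicate 1 was lower than Sox9 cKO replicate 1, and the log2 fold change of -0.46 (SE 0.18) did not pass (adjusted p = 0.131).

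Ces1d, known as triacylglycerol hydrolase, releases stored fat for very low density lipoprotein assembly. It was at 608, 338 and 583 TPM in Sox9 cKO livers and 669, 716 and 690 TPM in control livers. All Sox9 cKO values were below all control values, with Sox9 cKO replicate 2 far under its group. The log2 fold change was -0.49 (SE 0.23, adjusted p = 0.195), with a 95% interval of -1.01 to 0.04 that includes no difference. Ces1g, whose loss in mice leads to fat accumulation in the liver, fell. It was at 260, 155 and 184 TPM in Sox9 cKO livers and 398, 412 and 336 TPM in control livers. The groups did not overlap, and the Sox9 cKO mean of 199 ± 54.3 TPM was 0.521 times the control mean of 382 ± 40.5 TPM (SD, n = 3 each). The log2 fold change was -0.97 (SE 0.20, adjusted p = 0.0301). The call was lost without control replicate 1, 2 or 3, without Sox9 cKO replicate 2 or 3, with control replicate 3 as the sole control, with the sex-marker term and under median centring or quantile normalization, with adjusted p-values of 0.0139 to 0.427 over the 19 alternatives. Against control replicate 3 alone the log2 differences of the Sox9 cKO libraries were -0.37, -1.12 and -0.87.

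The remaining class 1 genes moved the other way. Ces1e, also called egasyn, holds part of the cell's beta-glucuronidase in the endoplasmic reticulum. It was at 178, 177 and 170 TPM in Sox9 cKO livers and 125, 123 and 128 TPM in control livers. Both groups were tight, within 1.05-fold in Sox9 cKO and 1.04-fold in controls. Ces1e rose, with a log2 fold change of 0.48 (SE 0.11, adjusted p = 0.0343), or 1.40 times the control mean. Control replicate 3 was at the level of the other controls, and the log2 differences from it alone were 0.47, 0.46 and 0.40. The call was lost without any 1 of the control libraries, with control replicate 3 as the sole control, without Sox9 cKO replicate 1, with the sex-marker term or a replicate block, and without the variance trend, while the log2 fold change stayed between 0.45 and 0.75 in all 19 alternatives. Gusb, which encodes beta-glucuronidase, was at 18.04, 24.8 and 18.2 TPM in Sox9 cKO livers and 18.7, 19.2 and 26.0 TPM in control livers, with overlapping groups (adjusted p = 0.845).

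Ces1f, an esterase that also acts on neutral lipid, rose. It was at 501, 430 and 483 TPM in Sox9 cKO livers and 316, 285 and 196 TPM in control livers. All Sox9 cKO values were above all control values, and control replicate 3 was the lowest. The means were 471 ± 37.0 TPM in Sox9 cKO and 266 ± 62.0 TPM in controls (SD, n = 3 each), a log2 fold change of 0.85 (SE 0.19, adjusted p = 0.0353). The call was lost in 11 of 19 alternatives, among them the omission of any 1 library, with log2 fold changes from 0.65 to 1.26 and adjusted p-values from 0.0113 to 0.190. With the sex-marker term its log2 fold change was 1.26 (SE 0.19, adjusted p = 0.0523). Ces1d, Ces1e and Ces1f are neighbours, with 3379 bases between Ces1d and Ces1e, and had log2 fold changes of -0.49, 0.48 and 0.85.

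Both class 2 members were of middle abundance. Ces2a, a hydrolase of acylglycerols in the endoplasmic reticulum, was at 465, 419 and 462 TPM in Sox9 cKO livers and 318, 274 and 368 TPM in control livers. The groups did not overlap, but the log2 fold change of 0.50 (SE 0.15) did not pass (adjusted p = 0.0687, 95% interval 0.16 to 0.83). It passed after median centring (0.0405) and with array weights (0.0143), out of 19 alternatives with adjusted p-values up to 0.663. Against control replicate 3 alone, the highest of the controls, the mean log2 difference was 0.29. Ces2e was at 316, 350 and 218 TPM in Sox9 cKO livers and 284, 313 and 228 TPM in control livers, with overlapping groups. Its log2 fold change of 0.08 (SE 0.21, adjusted p = 0.815) had a 95% interval of -0.39 to 0.56.

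Class 3 genes had the largest log2 fold changes of the 10. Ces3b was at 658, 321 and 731 TPM in Sox9 cKO livers and 149, 73.8 and 47.6 TPM in control livers. The lowest Sox9 cKO value was above the highest control value, although values spread 2.28-fold within Sox9 cKO and 3.13-fold within controls. Ces3b rose, with a log2 fold change of 2.73 (SE 0.45, adjusted p = 0.0158), the Sox9 cKO mean of 570 ± 219 TPM being 6.33 times the control mean of 90.0 ± 52.5 TPM (SD, n = 3 each). Control replicate 3, the control with Y-linked transcripts, had the lowest level, and against it alone the log2 differences were 3.78, 2.74 and 3.93. The call was lost in 3 of 19 alternatives, without control replicate 2 (adjusted p = 0.0715), with the sex-marker term (0.0565) and without control replicates 1 and 2 (0.143), where the log2 fold change was 2.66, 3.48 and 3.48.

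Ces3a had the second highest mean TPM of the 10 in both groups. It was at 1308, 1234 and 2379 TPM in Sox9 cKO livers and 790, 1005 and 382 TPM in control livers. The groups did not overlap, and Sox9 cKO replicate 3 was far above its group. The log2 fold change of 1.22 (SE 0.39) did not pass in the fit of all libraries (adjusted p = 0.0853) or in any of the 19 alternatives, whose lowest adjusted p was 0.0780. Its 95% interval was 0.32 to 2.12. Against control replicate 3 alone, the lowest control, the log2 differences were 1.78, 1.69 and 2.64. Because 18.3% of Ces3a windows occur in Ces3b, the sum of both is given as well. It was 1966, 1555 and 3109 TPM in Sox9 cKO livers and 939, 1079 and 430 TPM in control livers, a ratio of means of 2.71. For each of the 8 members whose groups did not overlap, the exact two-sided permutation test of the mean TPM gave p = 0.1, the smallest value that 3 against 3 samples allow.

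**Figure D3:**
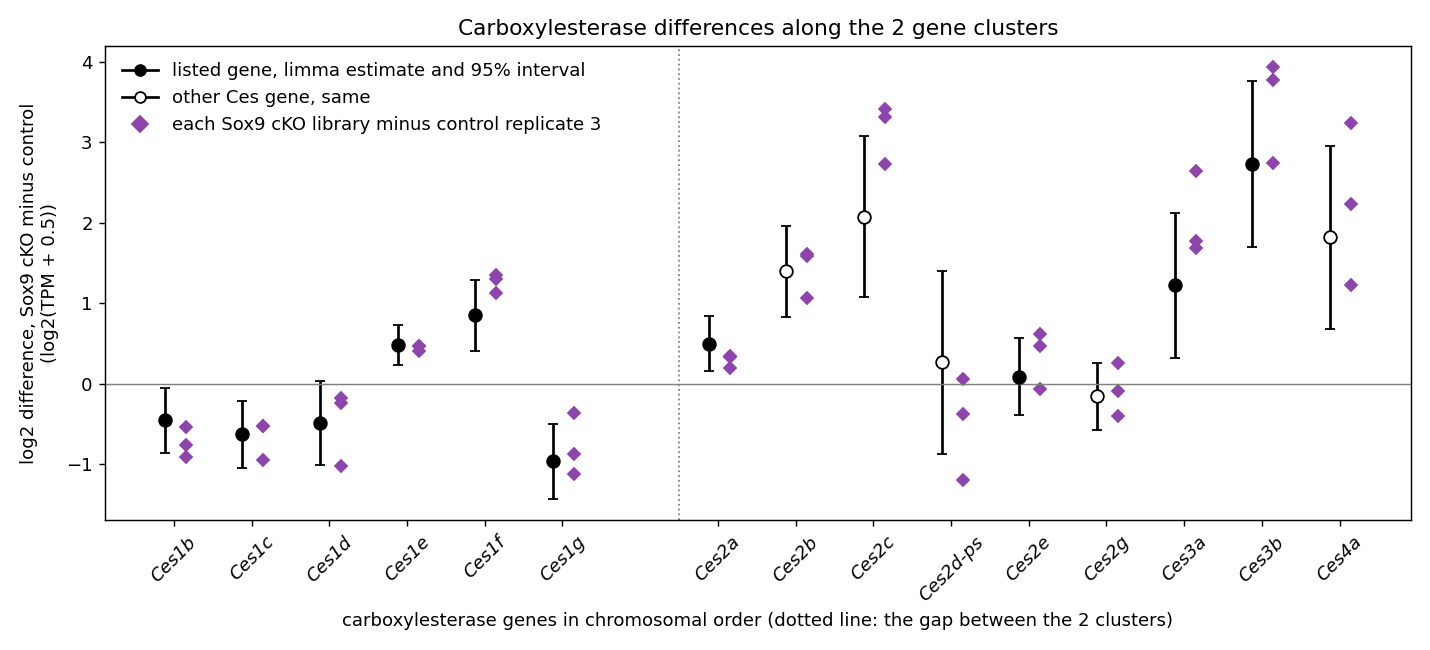
Log2 difference (vertical axis, log2(TPM + 0.5), Sox9 cKO minus control) of the 15 tested carboxylesterase genes in chromosomal order, with a dotted line between the clusters. Circles with bars are limma estimates with 95% intervals, filled for the 10 listed genes, and purple diamonds are the 3 Sox9 cKO libraries minus control replicate 3; Ces3b is the highest circle at 2.73 and Ces1g the lowest at -0.97.

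The table held 9 further rows with Ces symbols, of which 5 passed the filter on low values. Ces2c, a lipid hydrolase of liver and intestine that lies between Ces2a and Ces2e, was at 135, 145 and 90.2 TPM in Sox9 cKO livers and 45.4, 37.9 and 13.2 TPM in control livers. Ces2c rose, its log2 fold change being 2.07 (SE 0.43, adjusted p = 0.0301), and control replicate 3 was again the lowest. The call was lost without control replicate 1 or 2, without both of them and without Sox9 cKO replicate 1 or 2 (adjusted p = 0.0565 to 0.0814). Ces2b was at 2.01, 1.95 and 1.21 TPM in Sox9 cKO livers and 0.22, 0.48 and 0.32 TPM in control livers, a rise of 1.39 on the log2 scale (SE 0.24, adjusted p = 0.0189). Its control mean of 0.34 TPM lay under the filter level of 0.5 TPM, so it was tested only through its Sox9 cKO values. A filter at a mean of 2 TPM left it untested. The Ces2b call was lost in 6 of 18 alternatives, among them the omission of any 1 control (adjusted p = 0.0605 to 0.0774). Ces4a, which borders Ces3b, was at 0.95, 2.40 and 5.34 TPM in Sox9 cKO livers and 0.28, 0.66 and 0.12 TPM in control livers, and did not pass (adjusted p = 0.0565). Ces2g and the pseudogene Ces2d-ps did not pass either (adjusted p = 0.581 and 0.748). Ces1a and Ces2h stayed at or below 0.48 TPM, and Ces2f and Ces5a were listed at 0 in every library. Other protein-coding genes within 500 kb of the clusters gave 0 higher and 1 lower of 4 tested around the class 1 cluster, the lower one being Lpcat2 (log2 fold change -1.27, adjusted p = 0.0315). Around the other cluster 0 were higher and 1 lower of 25 tested, namely Cklf (-1.13, adjusted p = 0.0355). Over all tested genes 0.821% were higher and 8.76% lower. The Lpcat2 and Cklf calls were lost under median centring (adjusted p = 0.0721 for Lpcat2 and 0.107 for Cklf).

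Other enzymes that hydrolyse esters or related bonds gave 0 calls with the settings used for the members. Of 18 tested, 0 rose and 0 fell in limma, with a median log2 fold change of -0.06. Over all tested genes 0.821% rose and 8.76% fell, with a median of -0.24. At an unadjusted p under 0.05, 5 of the 18 passed. The share of all tested genes under that level was not counted. It was not small, since Afmid, at an unadjusted limma p of 0.0493, had an adjusted p of 0.167. The 5 are therefore not read as a result about these enzymes. After median centring 1 of the 18 was higher and 0 lower. Of the 18, only Aadac, Bche and Lipa were followed under every alternative. Bche (adjusted p = 0.0268) and the lysosomal acid lipase Lipa (0.0407) were lower with array weights. That setting called 2312 of all 12539 tested genes lower, against 1099 in the main fit. Bche was also lower without Sox9 cKO replicate 2 (0.0487). Aadac, an arylacetamide deacetylase of the endoplasmic reticulum, was at 923, 899 and 874 TPM in Sox9 cKO livers and 798, 846 and 787 TPM in control livers (adjusted p = 0.444). Bche, the plasma butyrylcholinesterase, was at 44.6, 27.4 and 41.3 TPM in Sox9 cKO livers and 59.8, 58.7 and 66.4 TPM in control livers (log2 fold change -0.73, adjusted p = 0.0523). Among 13 genes of triglyceride storage and secretion 0 rose and 1 fell, Soat2, a cholesterol esterifying enzyme (log2 fold change -0.62, SE 0.14, adjusted p = 0.0389), whose call was lost in 13 of 19 alternatives. Apob, the structural protein of very low density lipoprotein, was at 523, 497 and 952 TPM in Sox9 cKO livers and 919, 748 and 693 TPM in control livers (adjusted p = 0.446). None of the 3 receptors that return proteins to the endoplasmic reticulum, Kdelr1, Kdelr2 and Kdelr3, passed (adjusted p = 0.518, 0.744 and 0.182).

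Of 15 transcription factors known to act on drug and lipid metabolism, 0 rose and 2 fell, with a median log2 fold change of -0.30. Over all tested genes 0.821% rose and 8.76% fell, with a median of -0.24, so neither the count nor the median sets these 15 apart. Esr1, the estrogen receptor, was at 6.17, 5.85 and 4.88 TPM in Sox9 cKO livers and 11.8, 12.8 and 18.7 TPM in control livers (log2 fold change -1.26, SE 0.20, adjusted p = 0.0138). Stat5b, a mediator of growth hormone signalling, was at 16.2, 11.4 and 14.6 TPM in Sox9 cKO livers and 25.3, 23.4 and 20.8 TPM in control livers (-0.71, SE 0.16, adjusted p = 0.0370). The Esr1 call was lost in 4 and the Stat5b call in 12 of 19 alternatives, both under median centring (adjusted p = 0.0543 and 0.124). Nr1i3, the receptor CAR, was at 103, 58.3 and 85.9 TPM in Sox9 cKO livers and 174, 167 and 118 TPM in control livers (-0.90, adjusted p = 0.0530). Ppara (-0.59, adjusted p = 0.0825) and Nr1i2, the receptor PXR (-0.39, adjusted p = 0.170), did not pass.

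Many genes with sex-biased liver expression passed the test. Over all tested genes 0.821% were higher and 8.76% lower, and after median centring 1.16% and 2.04%. Of 11 male-biased genes 9 were higher and 0 lower (8 and 0 after median centring), with a median log2 fold change of 4.27. Of 13 female-biased genes 0 were higher and 9 lower (0 and 6 after median centring), with a median of -4.10. Cyp4a12a, a male-biased cytochrome P450, was at 87.9, 210 and 241 TPM in Sox9 cKO livers and 0.38, 0.12 and 0.06 TPM in control livers (log2 fold change 7.94, adjusted p = 0.000284). Sult2a1, a female-biased sulfotransferase, was at 6.11, 0.39 and 0 TPM in Sox9 cKO livers and 825, 880 and 842 TPM in control livers (-9.21, adjusted p = 0.00289). Control replicate 3 stood with the other controls for these 2 genes, but not for every gene of the lists. Cyp3a41a, a female-biased cytochrome P450, was at 2.60, 2.37 and 2.20 TPM in Sox9 cKO livers and 714, 1022 and 4.11 TPM in control livers (adjusted p = 0.0833). Cyp3a44 was at 0.43, 1.85 and 0.36 TPM in Sox9 cKO livers and 36.4, 62.3 and 3.32 TPM in control livers, and A1bg at 13.1, 3.92 and 1.40 TPM in Sox9 cKO livers and 377, 566 and 59.4 TPM in control livers. For these 3 genes control replicate 3 was far below the other controls, and for Cyp3a41a and Cyp3a44 it was near the Sox9 cKO livers. Their part in the carboxylesterase differences was not tested beyond the sex-marker term and the values against control replicate 3. Markers of other cells passed as well. Summed TPM of 10 macrophage genes was 185 to 407 in Sox9 cKO livers and 548 to 928 in control livers, with 7 of 10 lower, and 2 of 10 after median centring. That of 10 stellate cell and fibroblast genes was 104 to 208 in Sox9 cKO livers and 355 to 384 in control livers, with 8 of 10 lower, and 4 of 10 after median centring. Among other lists 2 of 8 endothelial, 4 of 9 leukocyte and 3 of 5 erythroid genes were lower, and 1 erythroid gene, Alas2, was higher. After median centring the lower ones numbered 0 endothelial, 1 leukocyte and 0 erythroid. Of 8 tested bile duct cell genes 2 were lower, Sox9 and Tspan8 (1 after median centring), while Cftr and Sctr were at or below 0.12 TPM in every library. Of 10 hepatocyte genes 0 passed, and 1 was higher after median centring. Alb was at 74907 to 82381 TPM in Sox9 cKO livers and 100900 to 110461 TPM in control livers (adjusted p = 0.330). Tdo2, a tryptophan-degrading enzyme, was at 1630, 1337 and 1733 TPM in Sox9 cKO livers and 845, 849 and 1208 TPM in control livers, without overlap (adjusted p = 0.0579, 0.0438 after median centring and 0.00858 with array weights). In bulk tissue fewer cells of a type and less RNA per cell cannot be told apart. Summed TPM of fat cell genes was at most 0.91 and that of kidney tubule genes was 0 in every library. Of 7 exocrine pancreas genes 4 were listed at 0 in every library, Prss1, Cpa1, Ctrb1 and Try5. Pnlip and Amy2a5 were at most 0.28 TPM, and Cela2a was at 1.57 to 7.62 TPM in Sox9 cKO livers and 2.01 to 2.55 TPM in control livers. Of 5 intestinal genes Sis and Cdx2 were listed at 0 and Vil1 was at most 0.47 TPM, while Lgals4 was at 5.48 to 10.04 TPM in Sox9 cKO livers and 8.68 to 13.5 TPM in control livers. Fabp2, which liver also expresses, was the only called gene of these last 4 lists (log2 fold change 0.90, adjusted p = 0.0196). The part of these other cells in the carboxylesterase differences was not tested.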

How the data were processed

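Total RNA of 6 mouse liver samples was sequenced as stranded mRNA libraries in single-end reads of 75 nt, per the labels' protocols. Per the submitters' processing notes, the tools were Trim Galore 0.5.0, cutadapt 1.16, STAR 2.6.0a and RSEM 1.3.1 with build mm10. Gene annotation and strand setting: not given in the sources used here. The authors deposited 1 table of TPM, scaled to 1 fixed total per library, which keeps no depth, so no counting interval was computed. RSEM divides reads among similar genes, and overlapping antisense genes are uncertain without the strand setting.

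The 12539 genes whose mean reached 0.5 TPM entered limma 3.58.1, run in R 4.3.3, on the log2(TPM + 0.5) scale. Group was the sole factor and variances were moderated along a trend. All tests were two-sided, with Benjamini-Hochberg adjustment over all tested genes at 0.05. Fold changes, Sox9 cKO minus control, understate changes of low genes. The fit was also run on simulated data with independent noise and group differences only. That run cannot vouch for the error rate in these libraries, whose controls differ in Xist. Single members were also compared by exact permutation. The labels do not state that libraries came from separate animals, so the p-values rest on a spread that may be technical. Members, lists and alternatives were chosen with earlier results of these data known. Named genes were the members, other Ces rows, Sox9, sex-linked genes, called or abundant genes of 20 context lists, and the closest genes to each class sum, not all of which are printed. Lpcat2, Cklf and other list members outside that rule were chosen after their values were seen. Sequences came from GENCODE M21 transcripts and RefSeq promoters, and figures from matplotlib 3.10.9.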

Additional observations from a re-analysis of the deposited data

How the results depend on the processing

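No alternative turned the sign of a called member. With 3 higher and 1 lower member as the values reported, lower members numbered 0 after median centring, 0 when Xist status was a term, 0 without control replicates 1 and 2, and 2 with array weights. Higher members numbered 1 with the replicate block, 0 with the sex-marker term and 0 without control replicates 1 and 2. Leaving out 1 library at a time gave 0 to 2 higher and 0 to 1 lower members. Sox9 lost its call under median centring (log2 fold change -0.88), quantile normalization (-0.66), the replicate block (-1.16), and both fits that handle the Xist imbalance (-1.10 each). In all it was lost in 10 of 18 alternatives. Leaving out 1 library gave Sox9 values of -1.35 to -0.97 and ended the call in 5 of 6 cases (adjusted p = 0.0620 to 0.115), Sox9 cKO replicate 3 being the exception, and a filter at a mean of 2 TPM left Sox9 untested. Some genes without a call changed sign. On leaving out 1 library, Ces2e ranged from -0.053 to 0.29, Ces2g from -0.33 to 0.0032, Ces2d-ps from -0.23 to 0.65 and Gusb from -0.21 to 0.085. Ces2g was 0.12 and Gusb 0.21 after median centring, Gusb was 0.12 under quantile normalization, and Ces2d-ps was -0.51 in both fits that handle the Xist imbalance. The cause was not tested. Fits that leave 1 control assume that it varies like the Sox9 cKO libraries. Whether same-numbered samples were paired is unknown here. Their deviations from the group means correlated at -0.04, 0.00 and -0.03 across genes, and no Sox9 cKO sample correlated best with its own number. With so few samples these correlations cannot exclude a shared litter or batch. With the replicate block 85 genes were higher and 563 lower of all tested. Counts over all genes also moved when Xist status was a term (21 higher, 49 lower), with control replicate 3 as the sole control (9 and 18), with array weights (252 and 2312) and under quantile normalization (120 and 215). Rescaling without the 50 most abundant genes or without the Mup genes left 3 higher and 1 lower member each.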

Other observations

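The genes whose levels followed each class most closely over the 6 libraries were named by the Pearson correlation of log2(TPM + 0.5) among 7775 genes averaging 5 TPM or more. These values are a description over libraries that fall into 2 groups. The genes were chosen as the best of these candidates, so their likeness in pattern to the class sums follows from the choice. For the class 1 sum they were Clec1b, Map4k3 and Apoh (0.998 to 0.997). Clec1b was at 10.1, 3.98 and 8.67 TPM in Sox9 cKO livers and 18.3, 19.6 and 17.9 TPM in control livers. Apoh, a plasma glycoprotein made by hepatocytes, was at 2575, 2128 and 2460 TPM in Sox9 cKO livers and 2885, 2916 and 2882 TPM in control livers. For class 2 they were Car14, a membrane carbonic anhydrase, Csrnp1 and Gpn1 (0.996 to 0.987), with Car14 at 95.7, 93.8 and 72.2 TPM in Sox9 cKO livers and 61.2, 58.9 and 60.9 TPM in control livers. For class 3 they were Slc22a30, Hsd17b4 and Myo6 (0.989 to 0.985). Slc22a30, an organic anion transporter gene, was at 165, 152 and 224 TPM in Sox9 cKO livers and 87.8, 94.95 and 56.0 TPM in control livers, with control replicate 3 the lowest, as it was for Ces3a and Ces3b.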
